A study of Homo sapiens with 5 samples.

Results

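The miR-181 family is a group of microRNAs (miRNAs), small RNAs that pair with messenger RNAs and repress them. The family was taken as every human row of the deposited tables named for miR-181a, miR-181b, miR-181c or miR-181d, which gave 10 rows of 2565 human miRNA rows. These were 4 guide (5p) arms and 6 passenger (3p) arms; 8 rows had been proposed by name, and miR-181b-2-3p and miR-181d-3p were the 2 further rows that the same rule found. The libraries came from MCF10A, an immortalized human mammary epithelial cell line grown with horse serum, epidermal growth factor, insulin, cholera toxin and hydrocortisone. Detached cells (2 libraries) were held in suspension over a 2% poly-HEMA coating, which prevents adhesion, and carry a time label of 24 h. Attached cells (3 libraries) were kept on uncoated plates and carry a time label of 0 h, although the series' design describes 24 h of culture in either state. Nothing in the labels says that replicates came from separate cultures, so p-values cover the spread among these 5 libraries, which may be technical.

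A miRNA hairpin is cut into a duplex of its 5p and 3p arms, of which the guide is usually kept in Argonaute and the passenger is mostly degraded. Guide arms find their targets through the seed, bases 2 to 8 from the 5′ end. The miR-181 guides are best known in lymphocytes, where miR-181a raises the sensitivity of T cell receptor signalling by repressing phosphatases. In mammary epithelial cells miR-181a has been described as induced by TGF-beta and as a repressor of BCL2L11 (Bim), a protein that promotes the death of epithelial cells that lose their matrix contact.

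The 4 guide arms shared the seed ACAUUCA. They are shown with the seed in capitals, because their small differences set which name a read can be assigned to (RefSeq, GRCh38.p14, 5′ to 3′).
hsa-miR-181a-5p: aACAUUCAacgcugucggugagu
hsa-miR-181b-5p: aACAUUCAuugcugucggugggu
hsa-miR-181c-5p: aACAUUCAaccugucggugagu
hsa-miR-181d-5p: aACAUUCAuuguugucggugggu
Counting positions from 1 at the 5′ end, miR-181b-5p and miR-181d-5p differed by the single substitution C12U, with the miR-181b base first. miR-181a-5p and miR-181c-5p were 1 edit apart, and miR-181a-5p and miR-181b-5p differed by 3 substitutions (A9U, C10U and A21G). How reads that match several names were counted is not given in the sources used here, so assignment between miR-181b-5p and miR-181d-5p, and between miR-181a-5p and miR-181c-5p, is uncertain. miR-4262, the remaining human miRNA with this seed in RefSeq, had 0 counts in all 5 libraries.

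The passenger arms, again with bases 2 to 8 in capitals, are shown because they tell apart loci whose guides are identical.
hsa-miR-181a-3p: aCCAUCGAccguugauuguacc
hsa-miR-181a-2-3p: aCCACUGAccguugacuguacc
hsa-miR-181b-3p: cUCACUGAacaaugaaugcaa
hsa-miR-181b-2-3p: cUCACUGAucaaugaaugca
hsa-miR-181c-3p: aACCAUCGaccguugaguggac
hsa-miR-181d-3p: cCACCGGGggaugaaugucac
miR-181a-3p and miR-181a-2-3p differed by 3 substitutions (U5C, C6U and U16C, the miR-181a-3p base first), of which the first and the second lie in the seed region. miR-181b-3p and miR-181b-2-3p kept the same bases 2 to 8 and were 2 edits apart.

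The family lies in 3 clusters, each with an a-b or c-d pair of hairpins (GENCODE 29, GRCh38, 1-based). MIR181A1 (chr1:198859044-198859153, minus strand) and MIR181B1 (chr1:198858873-198858982, minus strand) lie 61 bp apart in an intron of the long noncoding RNA MIR181A1HG. MIR181A2 (chr9:124692442-124692551, plus strand) and MIR181B2 (chr9:124693710-124693798, plus strand) lie 1158 bp apart in an intron of the noncoding MIR181A2HG, and opposite an intron of NR6A1. MIR181C (chr19:13874699-13874808, plus strand) and MIR181D (chr19:13874875-13875011, plus strand) lie 66 bp apart in an annotated intron of NANOS3. The miR-181a hairpins of chromosomes 1 and 9 are given with both mature arms in capitals, since the 5p arm is the same in each and the 3p arm is not.
MIR181A1: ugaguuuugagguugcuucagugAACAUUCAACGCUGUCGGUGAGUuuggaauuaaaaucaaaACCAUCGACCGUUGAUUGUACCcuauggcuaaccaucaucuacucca
MIR181A2: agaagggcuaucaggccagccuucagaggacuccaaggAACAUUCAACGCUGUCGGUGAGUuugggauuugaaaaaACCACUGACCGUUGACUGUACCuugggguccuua

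Libraries held 8805009 to 15793173 human miRNA counts, 97.1% to 98.7% of all named counts. Attached replicate 2 stood apart: over the 697 tested miRNAs it correlated with the others at a Spearman coefficient of 0.812 to 0.857, and those 4 correlated with each other at 0.927 to 0.961. Epithelial marker miRNAs were detected in every library (8 of 8) and abundant as a sum (87543 to 121643 CPM in detached and 42423 to 97914 CPM in attached libraries). Single markers were uneven, and miR-203a-3p measured 6.42 to 7.27 CPM in attached libraries. The low end of the sum was attached replicate 2. That library was lowest in miR-205-5p (17078 CPM) and miR-200c-3p (1746 CPM) but highest in miR-141-3p (21962.5 CPM). Of 7 blood cell markers 0 were at 0 in every library, and their summed level was 22.1 to 22.9 CPM in detached and 5.79 to 19.2 CPM in attached libraries. Of 7 matched fibroblast, muscle and endothelial markers 1 (miR-133a-3p) was at 0, and their sum was 49.6 to 89.6 CPM in detached and 16.5 to 36.9 CPM in attached libraries. Both of these sums were higher in detached libraries, which is opposite in sign to the family, and their part in the results was not tested.

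The family took a smaller share of human miRNA counts in detached cells, but the margin between the nearest libraries was narrow. All 10 rows together made up 0.594% and 1.04% of human miRNA counts in detached replicates 1 and 2, against 1.06%, 1.33% and 1.14% in attached replicates 1, 2 and 3. Detached replicate 1 was thus far below every other library, and detached replicate 2 lay just under attached replicate 1. The log2 ratio of the group means was -0.53, and it was -0.18 without detached replicate 1 and -0.98 without detached replicate 2. Guides made up 96.4% to 96.7% of family counts in detached and 96.4% to 97.4% in attached libraries. These values are shares of human miRNA counts and do not measure RNA per cell. In these bulk libraries, fewer cells of a kind, less RNA per cell and a rise of other miRNAs cannot be told apart.

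Levels are given as CPM, counts per 1000000 human miRNA counts in a library, with no length scaling because the mature arms are all 20 to 23 nt long. hsa-miR-181a-5p was the main product of the family, ranking 12th to 29th among human miRNAs. It measured 4521 and 8072 CPM in detached libraries, against 8109, 9852 and 8591 CPM in attached libraries. Both detached libraries were lower than all attached ones, though detached replicate 2 reached 99.5% of attached replicate 1. The mean was 6296 ± 2511 CPM in detached (SD, n = 2) and 8851 ± 900 CPM in attached cells (SD, n = 3). On the log2 scale the difference was -0.49 with an SE of 0.48 (edgeR adjusted p = 0.914). It was -0.13 without detached replicate 1 and -0.97 without detached replicate 2.

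hsa-miR-181b-5p, the partner guide of the chromosome 1 and 9 clusters, followed the same order of libraries. It measured 1170 and 1893 CPM in detached libraries, against 2061, 2867 and 2432 CPM in attached libraries. The groups did not overlap, with a log2 difference of -0.68 (SE 0.53, edgeR adjusted p = 0.877). That difference was -0.37 without detached replicate 1 and -1.07 without detached replicate 2.

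hsa-miR-181c-5p, from chromosome 19, was far scarcer. Its values were 36.9 and 53.9 CPM in detached libraries, against 55.3, 81.9 and 65.2 CPM in attached libraries. The groups did not overlap here either, again with detached replicate 2 close to attached replicate 1, and the log2 fold change was -0.57 (SE 0.64, edgeR adjusted p = 0.934). Leaving out detached replicate 1 gave -0.32, and leaving out detached replicate 2 gave -0.87.

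hsa-miR-181d-5p, the scarcest guide, had the largest fold change of the family and also the widest spread. It had 39 and 26 counts in detached libraries, against 44, 348 and 177 counts in attached libraries, or 2.47 and 2.47 CPM against 3.62, 39.5 and 17.1 CPM. Attached replicates 2 and 3 were high, while attached replicate 1 was close to the detached libraries. The log2 fold change was -3.02 (SE 1.07, edgeR unadjusted p = 0.0237, adjusted p = 0.612), the third smallest p among miRNAs with a negative fold change. DESeq2 called it lower (-3.56, SE 1.05, adjusted p = 0.0448), and without attached replicate 2 edgeR gave -2.06 (SE 0.74, adjusted p = 0.272). Among the other settings that tested miR-181d-5p, the lowest adjusted p was 0.134, from edgeR with no filter on low counts. It did not pass the stricter filter on level.

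**Figure D1:**
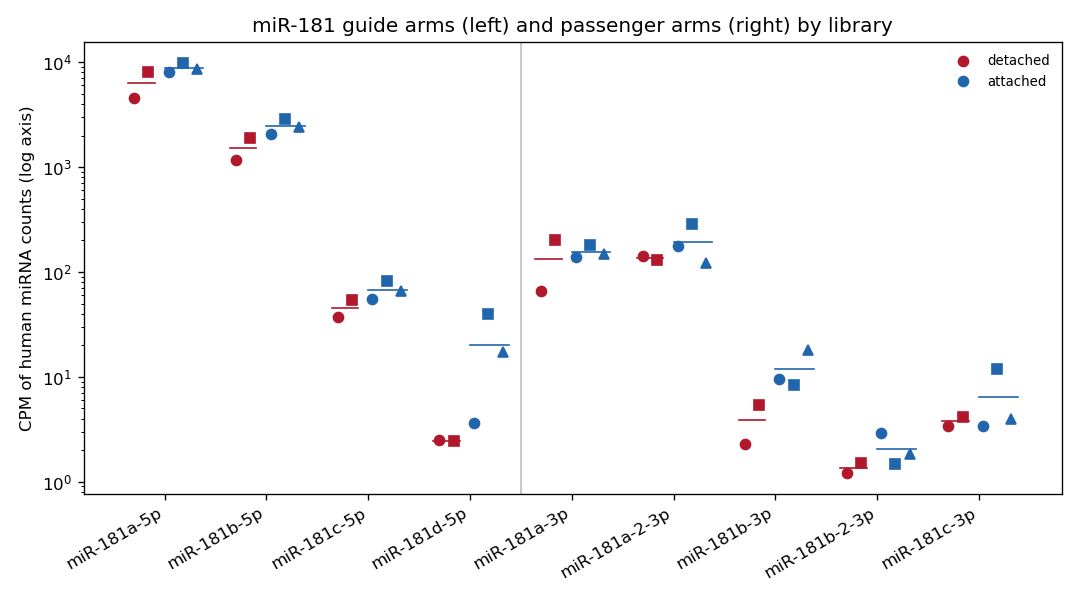
Level of each miR-181 arm in each library, in CPM of human miRNA counts on a log axis; circles, squares and triangles are replicates 1, 2 and 3, and lines are group means. The 4 guide arms and miR-181b-3p were lower in both detached libraries than in all attached ones, and miR-181d-5p spread from 3.62 to 39.5 CPM within the attached group (miR-181d-3p, at 0 to 3 counts, is not drawn).

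Passenger arms are made with the guides and are usually short-lived. miR-181a-3p, from MIR181A1 on chromosome 1, measured 65.4 and 201 CPM in detached libraries, against 138, 180 and 149 CPM in attached libraries. The detached libraries lay on either side of the attached range. miR-181a-2-3p, from MIR181A2 on chromosome 9, measured 141 and 130 CPM in detached libraries, against 176, 284 and 121 CPM in attached libraries, and the groups overlapped. Their log2 fold changes were -0.22 (SE 0.70) and -0.52 (SE 0.66). For miR-181a-3p the value was 0.37 (SE 0.93) without detached replicate 1 and -1.25 without detached replicate 2, and for miR-181a-2-3p it was -0.14 without attached replicate 2.

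miR-181b-3p, from MIR181B1 on chromosome 1, was the passenger arm whose groups did not overlap. It had 36 and 57 counts in detached libraries, against 115, 73 and 185 counts in attached libraries, or 2.28 and 5.41 CPM against 9.46, 8.29 and 17.9 CPM. Both detached libraries were below every attached one, and attached replicate 3 was the highest. The mean was 3.85 ± 2.21 CPM in detached (SD, n = 2) and 11.9 ± 5.26 CPM in attached cells (SD, n = 3), and the log2 difference was -1.63 (SE 0.74, edgeR unadjusted p = 0.061, adjusted p = 0.759).

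The remaining passengers were scarce; 3 counts, taken as the floor, were worth 0.190 to 0.341 CPM. miR-181c-3p had 54 and 44 counts in detached libraries, against 41, 104 and 41 counts in attached libraries. Its log2 fold change was -0.75 (SE 0.77), and it was 0.05 (SE 0.52) without attached replicate 2, the library with 104 counts. miR-181b-2-3p had 19 and 16 counts in detached libraries, against 35, 13 and 19 counts in attached libraries. miR-181d-3p had 3 and 2 counts in detached libraries, against 3, 0 and 3 counts in attached libraries, at or under the floor in each, and it did not pass the low-count filter.

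Read against all human miRNAs, no family member passed the test of level, and neither did any other miRNA. edgeR's quasi-likelihood test with Benjamini-Hochberg adjustment called 0 of 697 tested miRNAs lower (0%) and 0 higher (0%) at adjusted p under 0.05. At unadjusted p under 0.05 it had 7 lower (1%) and 39 higher (5.6%). Of the 9 tested members 1, miR-181d-5p, was lower at that unadjusted limit. DESeq2 called 1 lower, which was miR-181d-5p, and 11 higher. All 9 tested members had negative log2 fold changes, against 42% of all tested miRNAs, and their median was -0.61, against 0.20 over all tested miRNAs. The members share loci and, in part, sequence, so their signs are not independent of each other.

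In 5 of the 9 tested members (the 4 guides and miR-181b-3p) both detached libraries were below all attached ones, which held for 8.75% of tested miRNAs. The opposite separation, all detached above all attached, held for 18.1% of tested miRNAs and for 0 members. With TMM scaling, in which a trimmed mean sets the library sizes, 7 of the 9 were separated in this way, against 14.2% of tested miRNAs. TMM moved the median of all tested miRNAs to -0.04 and that of the members to -0.90. The members thus stood below the median of all tested miRNAs under both scalings.

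**Figure D2:**
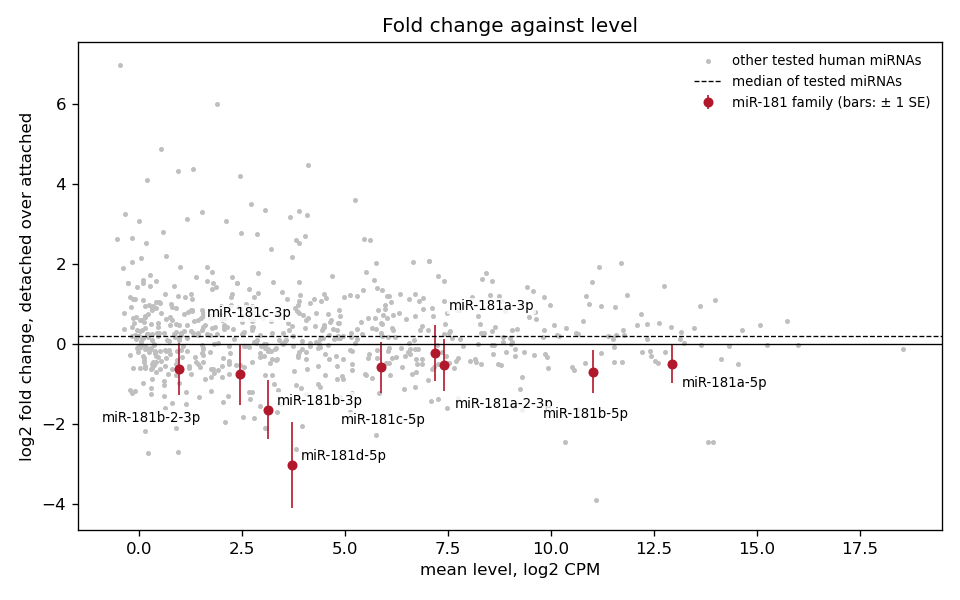
Log2 fold change, detached over attached, against mean level in log2 CPM for 697 human miRNAs; the 9 tested miR-181 arms are red with bars of 1 SE, and the dashed line is the median of all tested miRNAs at 0.20. All 9 lie under 0 and under that line, and miR-181d-5p and miR-181b-3p lie lowest at -3.02 and -1.63.

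The authors' deposited table had the same signs for the 9 tested members. In the authors' deposited table the log2 fold change was -0.77 for miR-181a-5p, -0.93 for miR-181b-5p, -0.81 for miR-181c-5p and -2.78 for miR-181d-5p, whose adjusted p of 0.127 was the lowest of the family there. For miR-181b-3p the authors' deposited table gave -1.76 with an adjusted p of 0.719.

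The mix of the 4 guides was steadier than their levels, except for miR-181d-5p. A ratio between arms within a library does not depend on how libraries are scaled. miR-181a-5p made up 78.9% and 80.5% of guide counts in detached libraries, against 79.3%, 76.7% and 77.4% in attached libraries. miR-181b-5p made up 20.4% and 18.9% in detached libraries, against 20.1%, 22.3% and 21.9% in attached libraries, and miR-181c-5p held 0.538% to 0.643% in detached and 0.541% to 0.638% in attached libraries. The log2 ratio of miR-181c-5p to miR-181a-5p averaged -7.08 ± 0.20 in detached (SD, n = 2) and -7.05 ± 0.14 in attached cells (SD, n = 3), a difference of -0.03 within the spread of the libraries. The differences were -0.16 for miR-181b-5p over miR-181a-5p (SD 0.10 in detached and 0.10 in attached libraries) and 0.13 for miR-181c-5p over miR-181b-5p (SD 0.10 and 0.05 in the same order), larger than those SDs, although the groups overlapped in each.

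The share of miR-181d-5p in the reads named miR-181b-5p or miR-181d-5p, which are 1 substitution apart, was 0.211% and 0.130% in detached libraries, against 0.175%, 1.36% and 0.700% in attached libraries. The 95% Wilson intervals, which cover counting error only, were 0.154% to 0.288% and 0.0889% to 0.191% in detached libraries, against 0.131% to 0.235%, 1.23% to 1.51% and 0.605% to 0.811% in attached libraries. Attached replicate 1 fell between the detached libraries, so the groups overlapped. Set against its chromosome 19 partner miR-181c-5p, miR-181d-5p amounted to 6.70% and 4.58% in detached libraries, against 6.55%, 48.3% and 26.3% in attached libraries. For the guides, 6 pairs were compared by an exact two-sided permutation test over the 10 assignments of libraries, for which the smallest possible p is 0.1. The raw p was 0.3 for 5 pairs and 0.7 for miR-181c-5p over miR-181a-5p (adjusted p of 0.36 and 0.7), so no ratio was shown to differ, in a design that could not have reached 0.05.

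**Figure D3:**
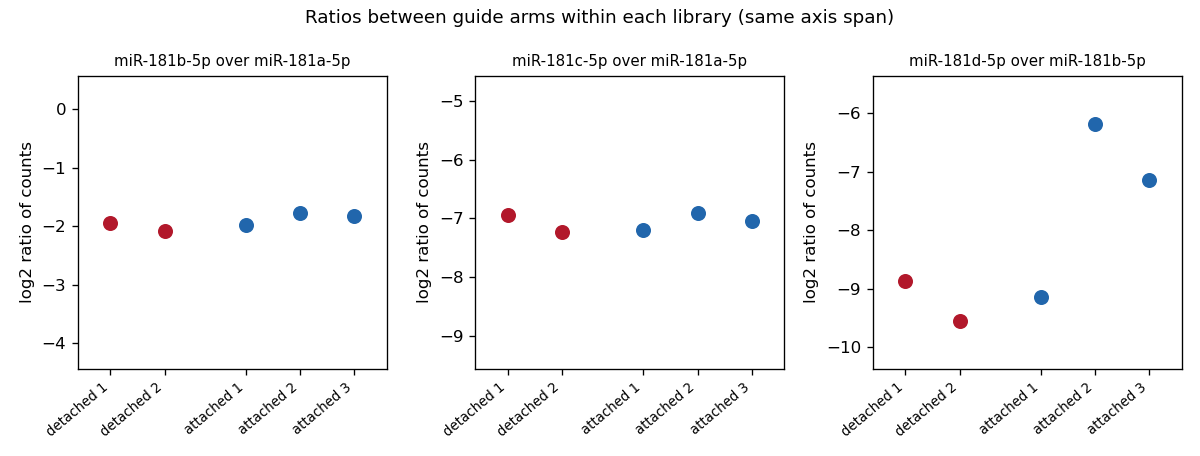
Log2 ratio of counts between guide arms in each library, on axes of equal span. The ratios of miR-181b-5p and miR-181c-5p to miR-181a-5p stayed within -2.09 to -1.78 and -7.22 to -6.91, whereas miR-181d-5p over miR-181b-5p ran from -9.56 in detached replicate 2 to -6.18 in attached replicate 2.

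Guide counts exceeded the counts of the matching passenger arms wherever the passenger was detected. The guides of miR-181a and miR-181b pool the chromosome 1 and 9 loci, so their excess over passengers is given for both loci summed and was not measured per hairpin. miR-181a-5p exceeded its summed passenger arms 21.9-fold and 24.4-fold in detached libraries, against 25.8-fold, 21.2-fold and 31.7-fold in attached libraries. miR-181b-5p exceeded its own 336-fold and 273-fold in detached libraries, against 167-fold, 294-fold and 123-fold in attached libraries. miR-181c-5p exceeded miR-181c-3p 10.8-fold and 12.9-fold in detached libraries, against 16.4-fold, 6.93-fold and 16.4-fold in attached libraries. The guide excess was thus lowest for miR-181c and highest for miR-181b among these 3 in every library.

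Arm ratios were tested with limma on the log2 ratio of 5p to 3p counts over 179 pairs of arm names with enough counts of both; in the miR-181a and miR-181b pairs the pooled guide stands over the passenger of 1 locus. limma called 0 pairs lower (0%) and 0 higher (0%) at adjusted p under 0.05, with 9 lower (5.03%) and 4 higher (2.23%) at unadjusted p under 0.05. None of the 5 family pairs tested was among either, and MIR181D did not enter because miR-181d-3p was too scarce. The largest shift was that of miR-181b-5p to miR-181b-3p, with log2 ratios of 8.98 and 8.44 in detached libraries, against 7.76, 8.42 and 7.08 in attached libraries. These groups did not overlap, as in 13.4% of all tested pairs in this direction, and detached replicate 2 was close to attached replicate 2. The difference was 0.96 (SE 0.93, limma adjusted p = 0.803), and it was 0.62 without attached replicate 3. The other 4 family pairs had differences of -0.16 to -0.06, each with an SE of 0.91 to 0.93.

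**Figure D4:**
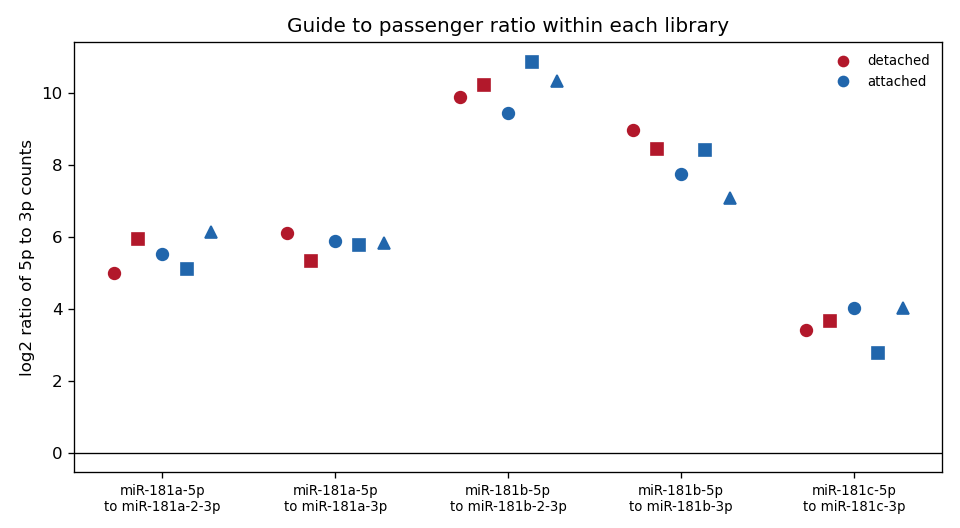
Log2 ratio of 5p to 3p counts in each library for the 5 tested pairs, in which the miR-181a and miR-181b guides pool 2 loci; circles, squares and triangles are replicates 1, 2 and 3. Log2 ratios ran from 2.79 to 4.02 for miR-181c, 5.00 to 6.14 for miR-181a and 7.08 to 10.9 for miR-181b, and miR-181b-5p to miR-181b-3p was the pair in which both detached libraries lay above all attached ones.

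Because the chromosome 1 and chromosome 9 hairpins give identical guides, the passenger arms were compared between loci. Passengers are mostly degraded, so these shares describe passenger counts, and the output of each locus was not measured. Of the miR-181a passenger counts, the chromosome 1 arm made up 31.7% and 60.8% in detached libraries, against 43.8%, 38.9% and 55.2% in attached libraries. The 95% Wilson intervals did not overlap between any 2 of the 5 libraries (30.1% to 33.3% and 59.2% to 62.4% in detached, against 42.3% to 45.4%, 37.4% to 40.4% and 53.3% to 57.0% in attached libraries). The libraries therefore differed beyond the counting error of reads. The intervals take each read as independent and leave out PCR copying, so a difference beyond PCR copying was not shown. The detached replicates marked the lowest and the highest value. The mean log2 ratio of miR-181a-3p to miR-181a-2-3p was -0.24 ± 1.23 in detached (SD, n = 2) and -0.24 ± 0.49 in attached cells (SD, n = 3; exact two-sided permutation p = 1). Without detached replicate 2 the difference was -0.87, and without detached replicate 1 it was 0.87, so it took its sign from whichever library was kept.

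Of the miR-181b passenger counts, the chromosome 1 arm made up 65.5% and 78.1% in detached libraries, against 76.7%, 84.9% and 90.7% in attached libraries. In every library this was above the share for miR-181a, although the hairpins lie in the same clusters. The interval was widest in detached replicate 1, at 52.3% to 76.6%. miR-181b-2-3p had 13 to 35 counts per library. It is 2 edits from miR-181b-3p, and how reads matching several names were counted is not given, so assignment between these arms is uncertain too. Detached replicate 1 had the lowest share of the chromosome 1 arm in both miR-181a and miR-181b, while the other libraries did not keep a common order. The log2 ratio differed by -1.11 between detached and attached cells (exact two-sided permutation p = 0.3, adjusted p = 0.6 over the 2 locus ratios). It was -0.66 without detached replicate 1, -1.56 without detached replicate 2 and -0.72 without attached replicate 3. Within the chromosome 1 cluster, miR-181b-3p amounted to 3.49% and 2.69% of miR-181a-3p in detached libraries, against 6.87%, 4.60% and 12.0% in attached libraries, and the groups did not overlap. Within the chromosome 9 cluster, miR-181b-2-3p amounted to 0.854% and 1.17% of miR-181a-2-3p in detached libraries, against 1.63%, 0.521% and 1.52% in attached libraries, and the groups overlapped. Both ratios were looked at after the levels were known and were not tested.

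**Figure D5:**
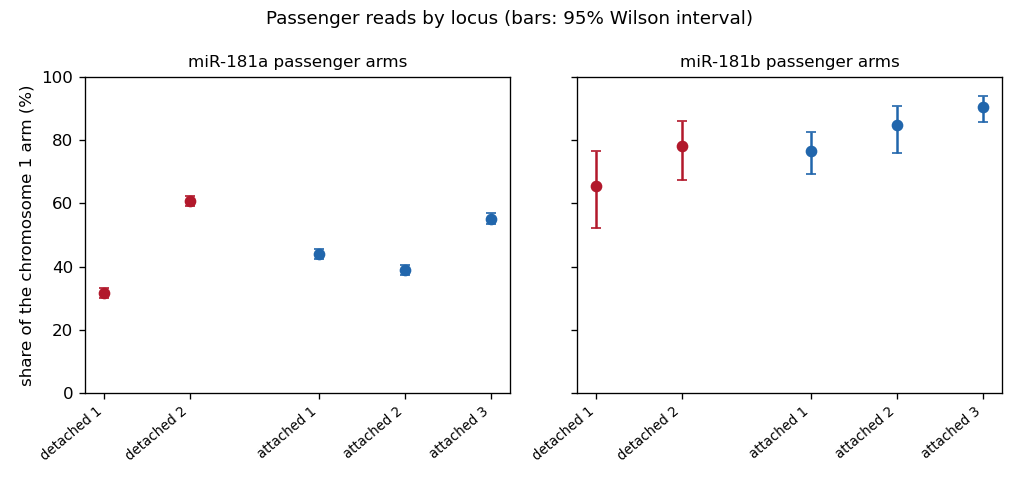
Share of passenger counts from the chromosome 1 locus, in percent, for miR-181a and miR-181b in each library, with 95% Wilson intervals. For miR-181a the detached libraries hold the lowest and highest values, 31.7% and 60.8%, on either side of all attached libraries.

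By root mean square distance of centred log2(CPM + 0.5) profiles over the 5 libraries, the profiles nearest to that of miR-181a-5p outside the family were miR-3176 (0.0798), miR-450b-3p (0.108), miR-296-3p (0.122), miR-2682-5p (0.122) and let-7d-3p (0.127). miR-181b-5p (0.112) ranked 3rd and miR-181c-5p (0.129) 7th among all other tested miRNAs, and miR-181d-5p (1.31) ranked 584th. Of the passenger arms, miR-181a-3p (0.255) came nearest, at rank 27, and miR-181b-3p (0.636) farthest, at rank 265.

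Among 12 other miRNAs known to repress Bim, 11 were tested, 4 had negative and 7 positive log2 fold changes, and edgeR called 0 at adjusted p under 0.05. Their median was 0.41, against 0.20 over all tested miRNAs. The smallest p belonged to miR-17-5p (2.79, SE 0.86, edgeR adjusted p = 0.524), miR-25-3p (-2.43, SE 1.22) and miR-24-3p (-1.60, SE 0.97). miR-17-5p has close paralogs, and how reads matching several names were counted is not given, so its value is uncertain. miR-25-3p and miR-24-3p were high in attached replicate 2, at 4743 and 5125 CPM. Among 10 other miRNAs reported as induced by TGF-beta or as promoting the epithelial to mesenchymal transition, 8 were tested, 4 in each direction, with 0 called by edgeR and a median of 0.01. Beside miR-24-3p, the smallest p there belonged to miR-100-5p (-0.50, SE 0.41), whose libraries did not overlap, and miR-23a-3p (0.52, SE 0.51).

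Among the epithelial markers 6 of 8 had positive log2 fold changes and 2 negative, with 0 called by edgeR, 1 higher at unadjusted p under 0.05 and a median of 0.61. They were led by miR-203a-3p (3.62, SE 0.70), miR-200b-3p (1.20, SE 0.71) and miR-200c-3p (0.96, SE 0.77). The 4 tested blood cell markers were positive with a median of 0.34, led by miR-451a (1.53, SE 0.88), miR-142-3p (0.44, SE 0.95) and miR-486-5p (0.22, SE 0.65). The 4 tested fibroblast, muscle and endothelial markers were positive with a median of 2.74. The smallest p there belonged to miR-145-5p (4.20, SE 0.73), miR-143-3p (2.18, SE 0.92) and miR-1-3p (3.31, SE 1.64), with 2 higher at unadjusted p under 0.05 and 0 called in either list by edgeR. The groups did not overlap for miR-145-5p, and they overlapped for miR-143-3p and miR-1-3p. miR-1-3p measured 11.6 and 0.0949 CPM in detached libraries, against 1.40, 0 and 0.291 CPM in attached libraries.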

How the data were processed

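Small RNAs of 18 to 24 nt were size-selected from 50 µg of total RNA, per the labels. The authors deposited raw read counts per named small RNA for each library (49965 names); hg38 and DESeq2 are named in the submitters' processing notes, and no source used here gives the aligner or counter. The authors' deposited comparison table holds log2 fold changes with standard errors and raw and adjusted p-values, per the file headers. Members and lists were chosen with earlier results of these data known. Counts of 2565 human miRNA rows went into edgeR 4.0.16 under R 4.3.3 (quasi-likelihood F test, two-sided; library size the total of these rows, no further factors; filterByExpr, minimum count 10, minimum total 15), and SE is the log2 fold change over the square root of F. Arm ratios used limma 3.58.1 on log2 ratios with 0.5 added to each count, over pairs with 10 counts of each arm in 2 libraries. Both fits were tested on simulated data. Named miRNAs were all members, the 3 smallest p per list and the 5 profiles nearest miR-181a-5p. No library duplicated another of its group (chi-square over degrees of freedom, 606 to 3834). Depth was 8805009 to 15793173 human miRNA counts per library. Floors and intervals reflect the counting error of reads alone. No molecular identifiers mark PCR copies, so error from PCR copying is not covered. Alternatives were TMM, RLE, DESeq2 1.42.0, limma-voom, other filters and library sizes, another pseudocount, a replicate block and leaving out each library.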

Additional observations from a re-analysis of the deposited data

How the results depend on the processing

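With 2 detached libraries, the main edgeR fit did not separate the guide changes from the spread between libraries (edgeR adjusted p of 0.612 to 0.934). The count of miRNAs called lower and higher was 0 and 0 in the main edgeR fit, 1 and 11 with DESeq2, and 5 and 15 with no filter on low counts. Leaving out a library gave 0 lower and 0 to 12 higher, with 12 without attached replicate 2. With the replicate number as a block, 0 miRNAs were called in either direction, miR-181d-5p gave -2.28 (SE 1.50) and miR-181b-3p -1.33 (SE 1.13). Numbers were not taken as pairs, because they are not said to mark a shared culture. Deviations from the group mean correlated at r of -0.24 and -0.22 over 697 miRNAs between libraries that share a number. The deviations of 2 detached libraries mirror each other, so these values cannot decide whether numbers mark pairs. Over all settings that tested them, miR-181d-5p ran from -3.56 to -2.06 and miR-181b-3p from -2.38 to -1.13, and neither passed the stricter filter. When a library was left out, miR-181a-3p ran from -1.25 to 0.37 (positive without detached replicate 1) and miR-181c-3p from -1.05 to 0.047 (positive without attached replicate 2); the cause was not tested.

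Arm ratio calls were 0 lower and 0 higher, 1 lower with the replicate block, and 0 to 2 lower when a library was left out, with 2 without attached replicate 3. Small arm ratio differences changed sign: miR-181a-5p to miR-181a-2-3p was 0.16 with the replicate block and without attached replicate 3, and 0.36 without detached replicate 1. miR-181c-5p to miR-181c-3p was 0.14 with the block, without attached replicate 1 and without attached replicate 3, and 0.07 without detached replicate 1. Attached replicate 3 has no detached library of its number, so the block and leaving it out gave the same arm ratio differences. miR-181b-5p to miR-181b-2-3p was 0.02 without detached replicate 1 and 0.17 without attached replicate 2, and miR-181a-5p to miR-181a-3p was 0.28 without detached replicate 2. When a library was left out, the lowest values of these 4 ratios were -0.59, -0.47, -0.54 and -0.51. The locus log2 ratio of miR-181a ran from -0.87 to 0.87 when a library was left out, with -0.06 without attached replicate 1 and -0.21 without attached replicate 2. miR-181c-5p over miR-181a-5p was 0.11 without detached replicate 2 and 0.04 without attached replicate 2, in a range of -0.18 to 0.11. The family total ran from -0.98 to -0.18 when a library was left out, and was -0.86 with TMM.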
